A study of Mus musculus with 2 samples.

Results

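The 10 genes described here are the CXC chemokines Cxcl1, Cxcl2, Cxcl9, Cxcl10, Cxcl12, Cxcl14, Cxcl15 and Cxcl16, the CX3C chemokine Cx3cl1 and the receptor Cxcr4. They were chosen by symbol, and all 10 were among the 32285 genes of the count matrices. The data were 3′ single-cell RNA-Seq of mouse lung, with 1 library of Cebpa fl/fl mice (the control library) and 1 of CebpaΔSftpc mice, in which a tamoxifen-inducible Cre driven from the Sftpc locus deletes Cebpa in alveolar type 2 (AT2) cells. Both genotypes carry the floxed Cebpa allele. Tamoxifen was given at 75 mg/kg on 5 days in a row, and cells were taken 26 weeks after it was first given. Per the study's methods the mice were of mixed background, and weekly injections followed in experiments that ran past 3 months. The study dates the lungs of both genotypes from their first tamoxifen, while the labels do not say which mice were injected. Each library held cells of 3 mice per the study's description, and no mark in the files tells the mice apart, so there were no replicates and no test between genotypes was possible. All intervals below are exact 95% intervals that cover counting error only, not the spread between mice, and they are too narrow where a few cells hold most counts of a gene.

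After filtering, 11487 cells of the control library and 13238 cells of the CebpaΔSftpc library remained, with medians of 4835 and 2607 unique molecular identifiers (UMIs) per cell. Cells were assigned to 28 types by raw counts of marker genes, which gave a type to 82.2% of the control cells and 67.3% of the CebpaΔSftpc cells. The libraries differed in makeup before any gene was compared: immune cells were 1.54% of assigned cells in the control library (145 cells, 4 of them neutrophils) and 28.9% in the CebpaΔSftpc library (2569 cells, 383 of them neutrophils). Assigned AT2 cells numbered 476 and 279, with medians of 20685 and 1534 UMIs. Cebpa itself stood at 153 counts per 1000000 UMIs (CPM; interval, 145–161) in control AT2 cells and 118 CPM (102–136) in CebpaΔSftpc AT2 cells, and whether the counted 3′ end lies in the deleted stretch is not given in the sources used here. Of the kept cells, 44 carried a barcode present in both libraries, and 2 of these were assigned to the same type in both.

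Chemokines are small secreted proteins that direct the movement of leukocytes along gradients and are named for the spacing of their first cysteines, adjacent but for 1 residue in CXC members. CXC chemokines with a glutamate-leucine-arginine (ELR) motif before the cysteines attract neutrophils, mostly through Cxcr2, and those without it attract lymphocytes or act on other cells. Cxcl9 and Cxcl10 are interferon-induced ligands of Cxcr3, Cxcl12 is the ligand of Cxcr4 and Ackr3, and Cxcl16 and Cx3cl1 are made as membrane-anchored proteins that proteases can shed. In the lung, Cxcl15 (lungkine) is known as an epithelial chemokine of the mouse.

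The ELR feature divides these genes by the cells they are known to attract, and it can be read from the coding sequence. The stretch around the first cysteines is shown for the ELR genes, taken from the GENCODE annotation on GRCm38, with the codons of the ELR motif and of the first cysteines in capitals. The Cxcl1 stretch is at chr5:90891472-90891516, the Cxcl2 stretch at chr5:90904118-90904162 and the Cxcl15 stretch at chr5:90795204-90795248, all within exons on the plus strand.
Cxcl1: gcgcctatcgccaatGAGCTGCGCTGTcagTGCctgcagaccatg
Cxcl2: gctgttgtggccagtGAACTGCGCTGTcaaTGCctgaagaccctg
Cxcl15: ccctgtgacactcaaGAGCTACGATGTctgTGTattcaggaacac
The ELR codons were absent before the cysteines of the other ligands, for which Cxcl10 (chr5:92348169-92348213, minus strand), Cxcl12 (chr6:117171484-117171528, plus strand) and Cx3cl1 (chr8:94772334-94778077, plus strand, joined across an intron) are shown. In Cx3cl1 the cysteine codons have 3 others between them.
Cxcl10: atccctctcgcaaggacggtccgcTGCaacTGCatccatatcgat
Cxcl12: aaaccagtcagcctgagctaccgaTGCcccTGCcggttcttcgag
Cx3cl1: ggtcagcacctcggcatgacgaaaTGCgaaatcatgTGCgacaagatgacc

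Cxcl1, Cxcl2 and Cxcl15 lie close together on chromosome 5 (GRCm38), Cxcl15 at chr5:90794534-90803067, Cxcl1 at chr5:90891241-90893115 and Cxcl2 at chr5:90903871-90905938, each with 4 exons. The coding sequences of Cxcl1 and Cxcl2 were 76.7% identical, and those of Cxcl1 and Cxcl15 45.1%. The last 300 transcript bases, from which 3′ libraries draw most reads, shared 0 stretches of 30 bases between these genes, so reads from that end would not be split among them. The neighbours Cxcl1 and Cxcl2 had different sources in these libraries, as described below. RefSeq promoters of 300 bases (GRCm38.p6), from 250 bases before to 50 after the start site, were found for 9 of the 10 genes. An NF-kB motif (GGGA, any 2 bases, then TTCC), searched on both strands as were the others, occurred in those of Cxcl1, Cxcl2 and Cxcl10 and in 1.43% of all 27025 promoters. The stretches around these matches are shown with the matched letters in capitals, and in Cxcl1 and Cxcl2 the matches on the 2 strands overlap.
Cxcl1, chr5:90891149-90891208, plus strand: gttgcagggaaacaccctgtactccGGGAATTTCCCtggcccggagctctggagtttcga
Cxcl2, chr5:90903777-90903836, plus strand: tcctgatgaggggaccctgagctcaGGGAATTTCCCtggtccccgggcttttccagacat
Cxcl10, chr5:92349014-92349073, minus strand: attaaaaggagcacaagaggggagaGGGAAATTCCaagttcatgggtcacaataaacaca
The C/EBP letters TTGCNNAA were in none of the 9 windows and in 10.8% of all promoters, and those of an interferon-response motif (GAAA, any 2 bases, then GAAA) were in those of Cxcl10 and Cxcl14 and in 3.49%. A match is only a run of letters, and its absence from these windows says nothing of Cebpa.

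Across the types, most genes had the same main source in both libraries. Cxcl15 came from AT2 cells, Cxcl1 from adventitial fibroblasts, Cxcl14 from alveolar fibroblasts, Cxcl12 from general capillary cells, Cx3cl1 from aerocytes and Cxcl2 from neutrophils. For Cxcl2 the control source rests on a single cell, since 1 of only 4 control neutrophils held 90 of the 169 UMIs. Cxcr4 was the exception among genes with high counts, since 56.8% of its assigned UMIs came from endothelial cells in the control library and 81.1% from immune cells in the CebpaΔSftpc library. Levels below are UMIs of a gene per 1000000 UMIs summed over the cells of a type. Because RNA released from broken cells enters every droplet, the level in lymphocytes (B, T and natural killer cells together) is given as a reference for the ligands, and that in multiciliated cells for Cxcr4. The control library held 75 lymphocytes and the CebpaΔSftpc library 801, so the control reference is the less precise.

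**Figure D1:**
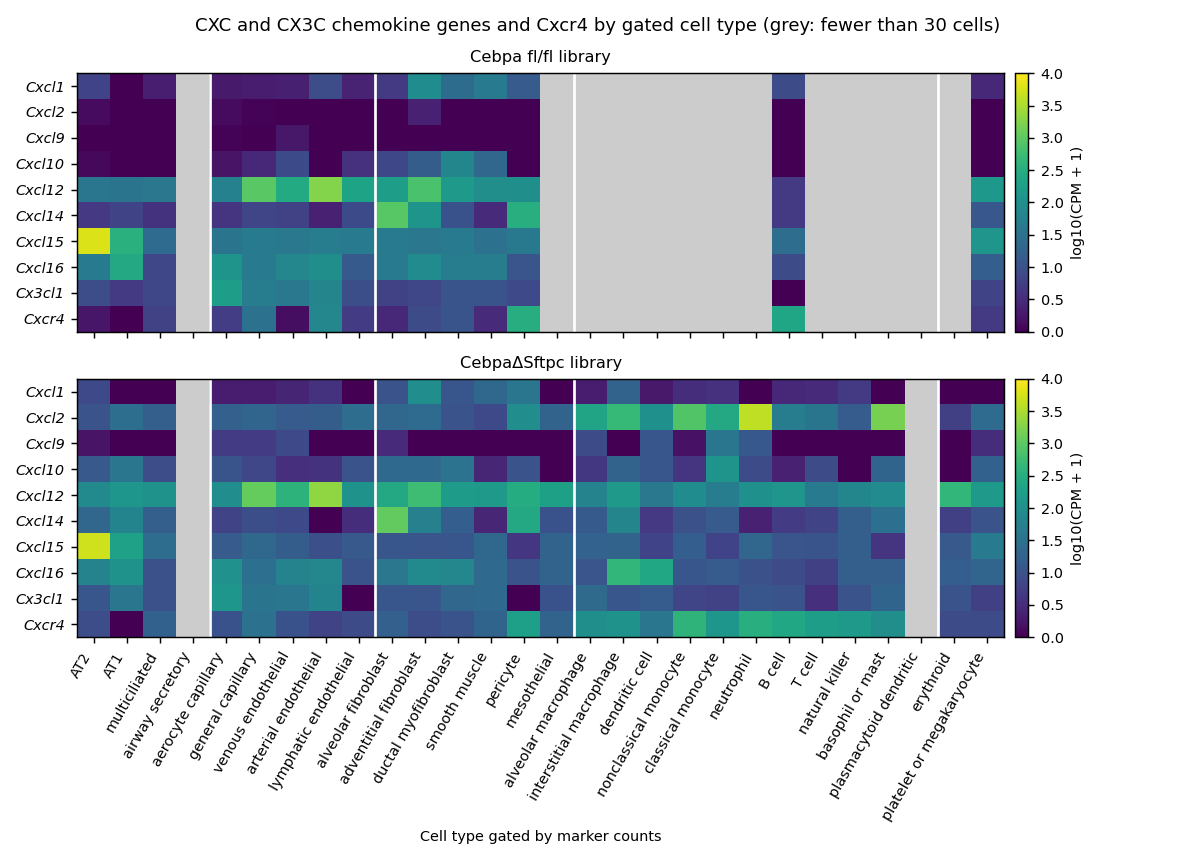
Heat map of the level of each of the 10 genes (rows) in each cell type (columns) of both libraries, as log10 of CPM plus 1, with types of fewer than 30 cells in grey. Cxcl15 stands out in AT2 cells (6161 CPM in the Cebpa fl/fl and 5199 CPM in the CebpaΔSftpc library), Cxcl14 in alveolar fibroblasts, and Cxcl2 in the myeloid types that only the CebpaΔSftpc library holds in number.

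**Figure D2:**
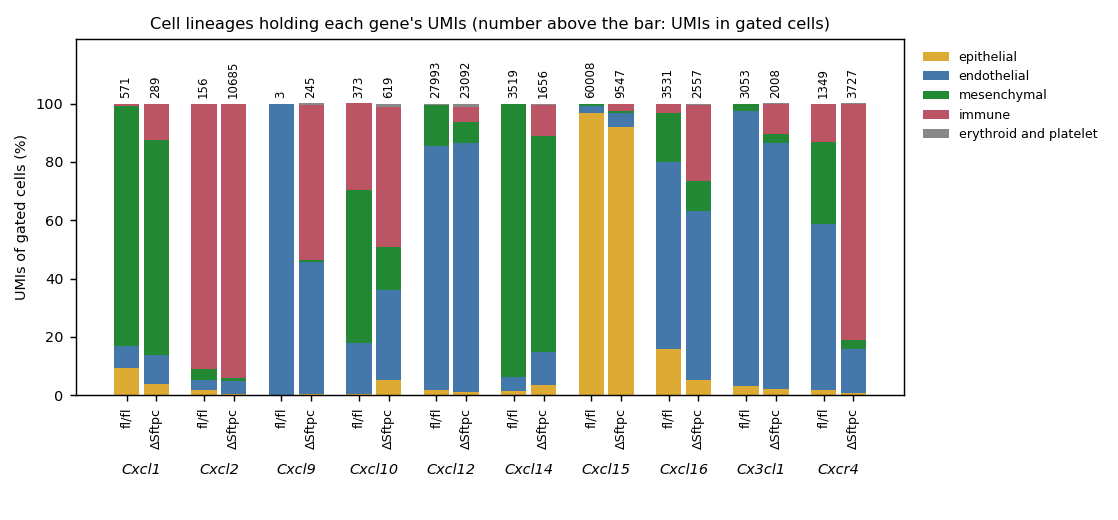
Stacked bars of the share, in percent, of each gene's assigned UMIs that lay in epithelial, endothelial, mesenchymal, immune and blood-derived cells, for each library. Epithelial cells held 96.8% and 92.1% of Cxcl15, mesenchymal cells 82.3% and 73.7% of Cxcl1, and immune cells 91.0% and 94.1% of Cxcl2 (Cebpa fl/fl first).

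For each of the 15 types with at least 30 cells in both libraries, a gene was compared where it had at least 50 UMIs in both libraries together. Over all genes and types so compared, 4.71% of 100687 gene-type pairs differed at least 2-fold, 3.37% higher and 1.33% lower in the CebpaΔSftpc library. The 10 genes gave 60 such pairs, of which 13 were at least 2-fold higher, 11 at least 2-fold lower and 36 under 2-fold, with a median log2 ratio of 0.08. Many of the large ratios were of Cxcl2 or Cxcl15 in types whose level lay near that of lymphocytes. In 44 pairs the level lay above that reference in at least 1 library. Of these 32 were under 2-fold and 27.3% were past it, with a median log2 ratio of -0.06. Because the levels themselves choose these pairs, the counts are a description. The 6 higher ones were Cxcl12 in AT2 cells, multiciliated cells and pericytes, Cxcl14 in AT2 cells, Cxcl9 in general capillary cells and Cxcl10 in aerocytes. The 6 lower ones were Cxcl10 in ductal myofibroblasts, Cxcl14 in adventitial fibroblasts, Cxcl16 in alveolar type 1 (AT1) cells, Cxcl15 in general capillary cells and platelets, and Cxcr4 in arterial cells. Only 34 pairs lay above the reference in both libraries. Of these 2 were at least 2-fold higher, 4 lower and 28 under 2-fold, so 17.6% were past it, with a median log2 ratio of -0.08. The 2 higher ones were Cxcl12 in multiciliated cells and in pericytes. The 4 lower ones were those named above except Cxcl15 in general capillary cells and Cxcr4 in arterial cells.

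**Figure D3:**
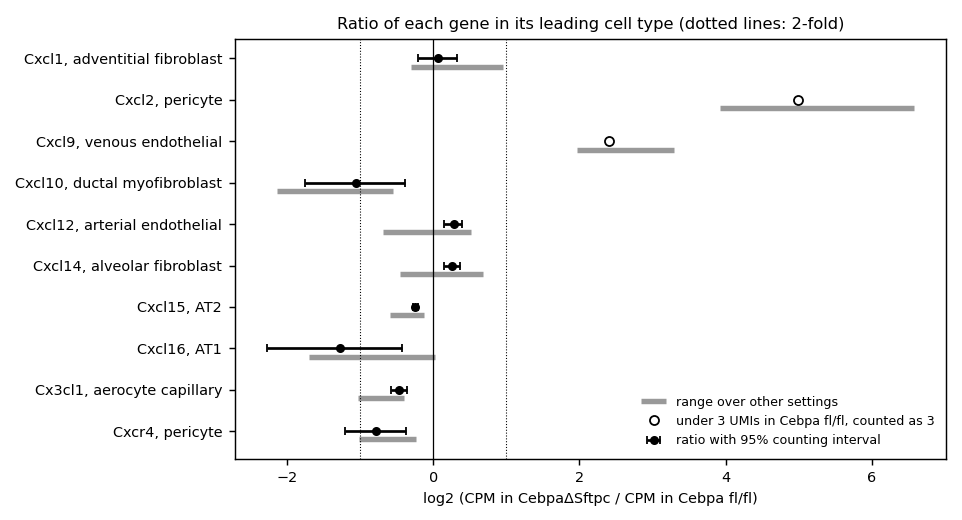
Log2 ratio of CebpaΔSftpc over control for each of the 10 genes in the type with its highest level among those compared, with exact 95% counting intervals as bars, grey bars for the range over other settings, and open circles where the control library had under 3 UMIs and was counted as 3. Cxcl1 in adventitial fibroblasts lies at 0.06 and Cxcl15 in AT2 cells at -0.25, while Cxcl16 in AT1 cells (-1.28) and Cxcl10 in ductal myofibroblasts (-1.05) are more than 2-fold lower. In the CebpaΔSftpc library all 28 UMIs of Cxcl2 in pericytes lay in a single cell, as did 7 of the 8 UMIs of Cxcl9 in venous cells.

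Among the neutrophil attractants, Cxcl15 was the epithelial one. Control AT2 cells held 57763 Cxcl15 UMIs, a level of 6161 CPM (6111–6211), and CebpaΔSftpc AT2 cells held 8637 UMIs, a level of 5199 CPM (5089.60–5309). The level was thus 1.19-fold lower in the CebpaΔSftpc library (log2 -0.25, interval -0.28 to -0.21), beyond counting error and under 2-fold. Per AT2 cell, 121 Cxcl15 UMIs were counted in the control library and 31.0 in the CebpaΔSftpc library, whose AT2 cells were far shallower. Over the whole libraries the gene stood at 884 CPM against 162 CPM (log2 -2.45). Assigned AT2 cells (476 and 279) and Cxcl15 UMIs per AT2 cell (121 and 31.0) were both lower in the CebpaΔSftpc library. The cause of either was not tested.

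Almost every AT2 cell had Cxcl15. Before thinning, 97.9% of control and 91.4% of CebpaΔSftpc AT2 cells had a UMI, and after every cell was thinned to 1000 UMIs (16 and 55 shallower AT2 cells left out) the shares were 98.3% and 89.3%. The level of single AT2 cells was lower and wider in the CebpaΔSftpc library, with a median of 3080.1 CPM and quartiles of 1421 and 5750.4 CPM, against a median of 5489 CPM and quartiles of 3915 and 7562 CPM. Within each library the level moved with depth. In AT2 cells of 1000 to 3000 UMIs it was 5285 CPM in 19 control cells and 3583 CPM in 141 CebpaΔSftpc cells. In those of at least 10000 UMIs it was 6186 CPM (408 cells) and 5646 CPM (53 cells), so the gap was smaller among the deepest cells. With every AT2 cell weighted equally the log2 ratio was -0.59. The summed AT2 markers moved in the same direction, and fell by 0.51 on the log2 scale between the AT2 cells of the libraries. Sftpc made up most of that sum, at 190882 and 141631 CPM in the AT2 cells of at least 10000 UMIs. What part depth or marker loss had in the Cxcl15 ratio was not tested.

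**Figure D4:**
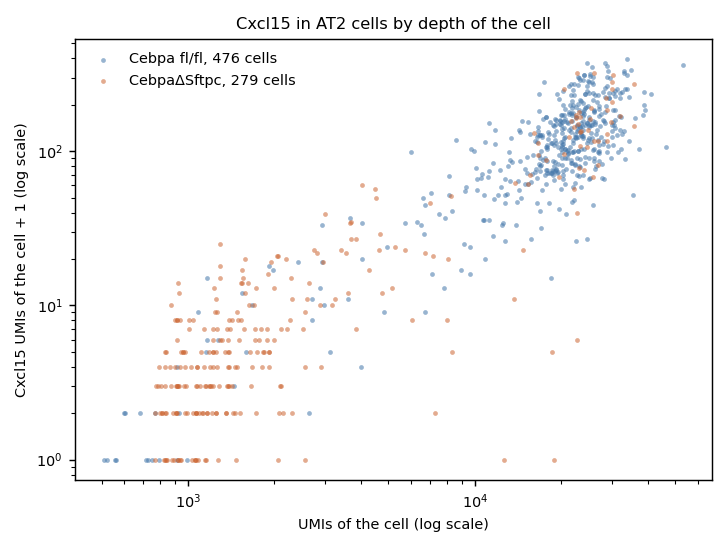
Cxcl15 UMIs plus 1 of every single AT2 cell (vertical log axis) against the UMIs of that cell (horizontal log axis), coloured by library. Most control cells lie above 10000 UMIs (408 of 476), while 141 of the 279 CebpaΔSftpc cells lie between 1000 and 3000 UMIs.

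Outside AT2 cells, Cxcl15 was low. AT1 cells, the thin gas-exchange cells, stood at 348 CPM (184 UMIs in 104 cells) and 196 CPM (22 UMIs in 41 cells), and 104 of the 184 UMIs lay in a single cell. The few secretory airway cells, 14 and 12, stood at 262 and 205 CPM. Lymphocytes, which do not make the gene, stood at 36.2 CPM in the control library and 10.6 CPM in the CebpaΔSftpc library. The ratios of Cxcl15 in fibroblasts and most endothelial types (for example 42.9 against 20.5 CPM in general capillary cells) were of levels close to that reference and moved in the same direction as it.

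Cxcl1, the other ELR chemokine of resident cells, was stromal. Adventitial fibroblasts, which sheathe vessels and airways, held 67.4% of its assigned UMIs in the control library and 59.9% in the CebpaΔSftpc library. Their level was 87.0 CPM (78.5–96.1; 385 UMIs) against 90.8 CPM (77.8–105; 173 UMIs), a log2 ratio of 0.06 (-0.21 to 0.32). The interval leaves room for a small difference in either direction and none as large as 2-fold from counting alone. The ratio was 0.95 among cells of 3000 to 10000 UMIs and -0.31 both below and above that depth. The type came first in both libraries, and its interval did not reach that of the next.

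Few adventitial fibroblasts carried the gene. A Cxcl1 UMI was found in 91 of 494 control and 34 of 352 CebpaΔSftpc adventitial fibroblasts, or 18.4% and 9.66%. These cells differed in depth, with medians of 8590 and 2514 UMIs. After thinning to 1000 UMIs the shares were 5.18% and 4.81%, against 1.35% and 0.128% of lymphocytes. Cells with at least 5 Cxcl1 UMIs numbered 29 and 9, and the tenth of adventitial fibroblasts with the most Cxcl1 held 86.2% of it in the control library and all of it in the CebpaΔSftpc library.

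The adventitial cells that carried Cxcl1 also differed in other inflammatory genes. In the control library, the cytokine Il6 stood at 92.6 CPM in cells with a Cxcl1 UMI and 11.3 CPM in those without, and in the CebpaΔSftpc library at 55.4 and 4.38 CPM. For Ccl2, a monocyte attractant, the values were 62.1 and 0.871 CPM in the control library but 74.9 and 83.2 CPM in the CebpaΔSftpc library, where cells with and without Cxcl1 had like levels. Cells with a Cxcl1 UMI were deeper than those without, so these values are descriptions.

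Other stromal cells held less Cxcl1. Smooth muscle cells had 23 and 12 UMIs, levels of 45.8 and 20.3 CPM (log2 -1.17, interval -2.32 to -0.11). Ductal myofibroblasts had 38 and 8 UMIs, levels of 25.1 and 10.8 CPM, and 28 of the 38 were in a single cell. Pericytes had 14 and 11 UMIs, and 9 of the 11 were in a single cell. Smooth muscle cells and ductal myofibroblasts were above the lymphocyte reference (5.71 and 2.16 CPM) in both libraries, and their intervals overlapped each other in both.

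The epithelial share of Cxcl1 was small. AT2 cells held 50 UMIs in the control library, 19 of them in a single cell and all in cells of at least 10000 UMIs, and 11 UMIs in the CebpaΔSftpc library, 6 of them in a single cell. Their levels were 5.33 CPM (3.96–7.03) and 6.62 CPM (3.31–11.8), with a log2 ratio of 0.31 (-0.78 to 1.27). Both intervals overlapped those of lymphocytes in the same library, although the control reference rested on 3 UMIs in 75 cells. They lay above those of general capillary cells (1.11 CPM, 0.709–1.65, and 1.04 CPM, 0.592–1.68). Without the B, T and natural killer cell with most Cxcl1, a setting chosen after the data were seen, the references were 1.97 CPM (0.0498–10.9) and 1.38 CPM (0.555–2.84). The AT2 interval overlapped the first of these and lay above the second. No AT1 cell had a Cxcl1 UMI in either library, which allows levels of up to 5.67 and 26.7 CPM at 3 counts. Over assigned cells, epithelial cells held 9.46% of Cxcl1 UMIs in the control library and 3.81% in the CebpaΔSftpc library, and immune cells 0.525% and 12.5%. Among immune types, interstitial macrophages of the CebpaΔSftpc library stood at 17.9 CPM, and none of the 383 neutrophils had a Cxcl1 UMI, which allows a level of up to 2.05 CPM.

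Cxcl2, the closest relative of Cxcl1 among these genes, was a myeloid gene here. The control library held 169 Cxcl2 UMIs and the CebpaΔSftpc library 13220, levels of 2.46 and 205 CPM (log2 6.38, interval 6.16 to 6.61). Neutrophils held 57.4% of assigned Cxcl2 UMIs in the CebpaΔSftpc library and 57.7% in the control library, where 90 of the 169 UMIs came from a single neutrophil. The libraries held 4 and 383 neutrophils. Those 4 control neutrophils had 9314 UMIs of all genes together, so their Cxcl2 level rests on that single cell. The parts of cell number and of RNA per cell in the difference between whole libraries were not tested.

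In the CebpaΔSftpc library, Cxcl2 followed a clear order over myeloid types. Neutrophils came first at 4187 CPM (4083–4293; 6138 UMIs), with a UMI in 80.4% of cells, or 71.2% after thinning to 1000 UMIs. Basophils or mast cells followed at 1532 CPM, with 164 of 503 UMIs in a single cell. Nonclassical monocytes, which patrol the vessel wall, stood at 814 CPM, interstitial macrophages at 481 CPM, classical monocytes at 260.2 CPM, alveolar macrophages at 212 CPM and dendritic cells at 100.4 CPM. The intervals of neighbours in this order did not overlap down to dendritic cells. Neutrophil markers stood at 9615 CPM in the nonclassical monocytes, against 2000.4 CPM in classical monocytes and 762 CPM in interstitial macrophages. The nonclassical monocyte with most Cxcl2 (196 UMIs) held 1133 UMIs of neutrophil markers. The part of this in the place of nonclassical monocytes was not tested. Neutrophils with at least 3 UMIs of Ccl3 and Ccl4 (40 cells) stood at 4686 CPM and the other 343 at 4089.7 CPM.

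**Figure D5:**
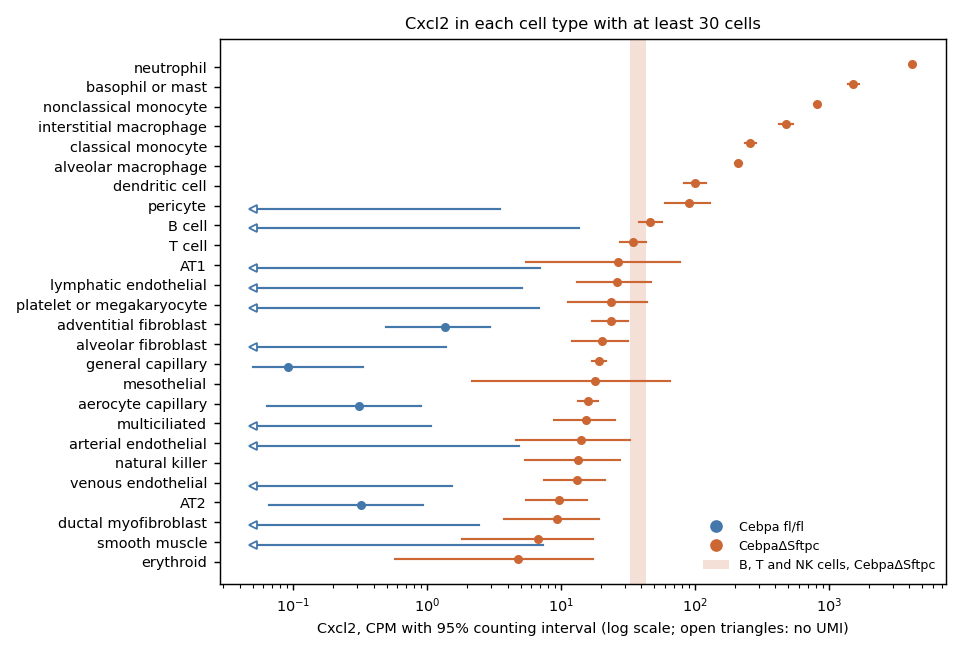
Cxcl2 level (CPM, log axis) in each cell type of the CebpaΔSftpc and control libraries with exact 95% counting intervals, a band for the level in CebpaΔSftpc lymphocytes and open triangles where no UMI was found. Neutrophils lead at 4187 CPM, and in the CebpaΔSftpc library AT2, multiciliated, capillary, venous, fibroblast and smooth muscle cells lie below the lymphocyte band at 37.7 CPM, which falls to 18.0 CPM without 3 lymphocytes.

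Outside the myeloid types Cxcl2 was low, and in most of them it was not above the level of lymphocytes. The lymphocyte reference was 37.7 CPM (32.6–43.4) in the CebpaΔSftpc library, and 0 UMIs in the control library, which allows a level of up to 5.71 CPM at 3 counts. In the CebpaΔSftpc library 101 of the 192 lymphocyte UMIs lay in 3 cells, 1 each of the B, T and natural killer cells, which together held 1638 UMIs of neutrophil markers. Without these 3 cells, a setting chosen after the data were seen, the reference was 18.0 CPM (14.5–22.1). In this library AT2 cells stood at 9.63 CPM (16 UMIs), multiciliated cells at 15.5 CPM, adventitial fibroblasts at 23.6 CPM (45 UMIs) and general capillary cells at 19.3 CPM (298 UMIs). These levels were below the first reference, and their intervals overlapped that of the second. The levels of AT1, arterial, lymphatic and mesothelial cells overlapped both, and of the types of at least 30 cells outside the myeloid ones only pericytes were above either. After thinning to 1000 UMIs, 4.49% of CebpaΔSftpc adventitial fibroblasts (2.47%–7.41%) and 2.04% of lymphocytes (1.17%–3.30%) had a Cxcl2 UMI. The same types had 3, 0, 6 and 2 UMIs in the control library. Neutrophil marker counts moved with these values, for example from 39.1 to 646 CPM in AT2 cells and from 8.59 to 478 CPM in adventitial fibroblasts. All 28 Cxcl2 UMIs of CebpaΔSftpc pericytes were in a single cell that also held 1553 UMIs of neutrophil markers, and 102 of the 298 in general capillary cells were in a cell with 192.

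The list of further ligands was examined for the same question of neutrophil attractants. Cxcl3, also an ELR chemokine, had 25 assigned UMIs in the control library, all in AT2 cells (2.67 CPM), while in the CebpaΔSftpc library it stood at 21.8 CPM in neutrophils and 8.16 CPM in alveolar macrophages. Cxcl5 and Ppbp, both with the ELR motif, stood at 94.6 and 73.8 CPM and at 9132 and 7902 CPM in platelets. Secretory airway cells of the CebpaΔSftpc library held 53 Cxcl5 UMIs, 51 of them in a single cell. Cxcr2, the receptor for these ligands, stood at 1351 CPM (1292–1412) in the 383 CebpaΔSftpc neutrophils and at 1503 CPM (14 UMIs) in the 4 control neutrophils. Cxcr1 was far scarcer, at 21.1 CPM in CebpaΔSftpc neutrophils.

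Cxcl9 and Cxcl10, which attract T and natural killer cells, came from few cells. Cxcl9 had 7 UMIs in 5 cells of the control library and 259 UMIs in the CebpaΔSftpc library. All 67 Cxcl9 UMIs of CebpaΔSftpc classical monocytes lay in a single cell that also held 91 Cxcl10 UMIs. Of 65 UMIs in general capillary cells, 44 were in a single cell, and of 38 in aerocytes, 34 were. Alveolar macrophages had their Cxcl9 more widely spread, with 33 UMIs over 22 cells (7.09 CPM).

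The source of assigned Cxcl10 UMIs differed between the libraries. In the control library 52.8% of assigned Cxcl10 UMIs were mesenchymal and 29.5% immune, and 104 of the immune ones were in a single cell assigned to basophils. In the CebpaΔSftpc library 14.7% were mesenchymal, 48.0% immune and 31.0% endothelial. Ductal myofibroblasts, which line the alveolar ducts, stood at 66.7 CPM (101 UMIs in 12 cells, 59 in 1) and 32.3 CPM (24 UMIs in 6 cells), with a log2 ratio of -1.05 (-1.75 to -0.39), of -0.55 without the top cell of each library, and of -2.14 with 1 more marker required.

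Several other types had higher Cxcl10 in the CebpaΔSftpc library, but not all. Smooth muscle cells went from 19.9 to 1.69 CPM, and venous cells from 7.05 to 2.46 CPM with overlapping intervals. General capillary cells went from 1.80 to 6.02 CPM (log2 1.74), and from 1.06 to 3.89 CPM without the 3 cells with most Cxcl10 in each library. Alveolar fibroblasts stood at 6.44 CPM (17 UMIs in 6 of 527 cells, 9 in 1) and 22.3 CPM (21 UMIs in 4 of 206 cells, 11 in 1), a log2 ratio of 1.79. Without the 3 cells with most Cxcl10 in each library, alveolar fibroblasts stood at 1.15 and 1.09 CPM, so this ratio rested on those cells. Aerocytes had 6 and 91 UMIs, of which 54 were in a single cell. Control AT2 cells had 2 Cxcl10 UMIs and CebpaΔSftpc AT2 cells 20, in 9 cells (12.0 CPM), with 13 of the 20 in 3 cells. Without the 3 cells with most Cxcl10 in each library, control AT2 cells had no UMI left. CebpaΔSftpc AT2 cells then stood at 4.24 CPM (1.70–8.73). The reference in lymphocytes was 7.61 CPM in the control library and 3.93 CPM in the CebpaΔSftpc library. The highest Cxcl10 level was in CebpaΔSftpc classical monocytes at 117 CPM (215 UMIs in 16 cells, 91 in 1).

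Interferon-response genes gave a setting for these values. Of the 9 listed, 5 were measured in AT2 cells and 4 were at least 2-fold higher in the CebpaΔSftpc library, with a median log2 ratio of 1.12, where 4.83% of all genes measured in AT2 cells were at least 2-fold higher and the median was 0.16. In general capillary cells 0 of 9 were, where 3.99% of all measured genes were, and the median was 0.21 against -0.01 over all genes. In adventitial fibroblasts 3 of 7 measured were, where 1.51% of all were, and the median was 0.42 against 0.02. Summed over the 9 listed genes, AT2 cells stood at 69.4 CPM in the control and 162 CPM in the CebpaΔSftpc library. B cells stood higher, at 266 and 360.3 CPM. The part of free RNA in the AT2 ratios was not tested. The listed NF-kB feedback genes had medians of 0.45 in AT2 cells and -0.19 in adventitial fibroblasts, and the immediate-early genes, which tissue digestion also induces, 0.45 and -0.29.

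Cxcl12, which retains leukocytes and precursors that carry Cxcr4, was endothelial. Endothelial cells held 83.6% and 85.4% of its assigned UMIs, and general capillary cells alone 73.9% and 76.3%. Arterial cells had the highest level, 1790.1 CPM (1696–1888) in the control library and 2166 CPM (2015–2326) in the CebpaΔSftpc library (log2 0.28). The arterial cells numbered 155 and 55 and varied widely, with quartiles of 107 and 2664 CPM and of 73.8 and 4260.0 CPM, and the Cxcl12 ratio turned to -0.22 among cells of 1000 to 3000 UMIs and to -0.68 with 1 more marker required. General capillary cells stood at 955 and 1140.4 CPM (log2 0.26, interval 0.23 to 0.29), with a UMI after thinning in 46.2% and 51.0% of cells, and the ratio was -0.05 among cells of 1000 to 3000 UMIs. Adventitial fibroblasts, the leading stromal source, went from 718 to 564 CPM (log2 -0.35), and their share of assigned UMIs from 11.4% to 4.66%.

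In several types that hold little of it, Cxcl12 was higher in the CebpaΔSftpc library. Lymphocytes went from 7.61 to 79.3 CPM, multiciliated cells from 37.3 to 111 CPM (log2 1.58) and AT2 cells from 35.8 to 79.5 CPM (log2 1.15). In the CebpaΔSftpc library the AT2 interval (66.5–94.2) overlapped that of lymphocytes (71.8–87.5), and the multiciliated interval (92.0–134) lay above it. The control lymphocyte level rested on 4 UMIs. Median depth was 20685 and 1534 UMIs in AT2 cells and 16473 and 1664 UMIs in multiciliated cells. The part of free RNA in the AT2 and multiciliated ratios was not tested. Pericytes went from 95.9 to 302 CPM (log2 1.65), with 27 UMIs in the top CebpaΔSftpc cell and a ratio of -1.17 among cells of 3000 to 10000 UMIs, and alveolar fibroblasts from 168 to 255 CPM (log2 0.60). Lymphatic cells went the other way, from 206 to 109.9 CPM (log2 -0.91). Ackr3, the scavenging receptor for Cxcl12, was highest in venous cells at 439.6 and 447 CPM and stood at 76.2 and 102 CPM in general capillary cells.

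Cxcl14, a chemokine of resting tissues, was mesenchymal. Alveolar fibroblasts held 68.5% and 62.2% of its assigned UMIs and stood at 914 CPM (878–951) and 1094 CPM (1029–1163), a log2 ratio of 0.26 (0.15 to 0.37). This sign depended on depth and weighting: the ratio was -0.45 among cells of 1000 to 3000 UMIs and -0.06 with every cell weighted equally. After thinning, 47.8% and 43.6% of alveolar fibroblasts had a UMI. Pericytes came next, at 329 and 263 CPM (log2 -0.32, interval -0.69 to 0.03).

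Adventitial fibroblasts had lower Cxcl14 in the CebpaΔSftpc library. Their level was 116 CPM (513 UMIs in 83 cells, 67 in 1) in the control library, against 53.5 CPM (102 UMIs in 32 cells) for CebpaΔSftpc cells, with a log2 ratio of -1.11 (-1.44 to -0.81). Over other settings the ratio ran from -2.65 to -0.44, so it was not past 2-fold in all of them. The tenth of these cells with most Cxcl14 held 93.2% of it in the control library and all of it in the CebpaΔSftpc library. Of the 7 genes measured in this type, 1 (Cxcl2) was at least 2-fold higher and 2 (Cxcl14 and Cxcl15) lower, where 1.51% and 0.990% of all measured genes were. In the CebpaΔSftpc library Cxcl2 stood at 23.6 CPM, against 37.7 CPM in lymphocytes (18.0 CPM without 3 of them). Cxcl15 stood at 37.7 and 10.5 CPM, near the 36.2 and 10.6 CPM of lymphocytes. These 2 ratios are therefore of levels close to or below the reference. AT2 cells had 34 and 33 Cxcl14 UMIs, levels of 3.63 and 19.9 CPM, while lymphocytes stood at 1.90 and 5.89 CPM.

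Cxcl16, the membrane-anchored ligand of Cxcr6, was spread over endothelial, epithelial and macrophage types. Among the types with at least 30 cells in both libraries its highest level was in AT1 cells, at 259 CPM (217–306; 137 UMIs) in the control library and 107 CPM (55.1–186; 12 UMIs) in the CebpaΔSftpc library. The log2 ratio was -1.28 (-2.27 to -0.43), and after thinning 22.7% and 12.8% of AT1 cells had a UMI. AT1 markers summed over the list fell by 1.03 on the log2 scale in the same cells, and among AT1 cells of 1000 to 3000 UMIs the Cxcl16 ratio was 0.03. Of the 2 genes measured in AT1 cells, 1 was at least 2-fold lower, where 8.98% of all measured genes were.

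In the other epithelial and endothelial types Cxcl16 differed less. Aerocytes, the capillary cells specialised for gas exchange, stood at 115 and 106 CPM (log2 -0.12), general capillary cells at 41.6 and 27.8 CPM (log2 -0.58) and adventitial fibroblasts at 84.5 and 80.3 CPM. AT2 cells went from 41.7 to 60.8 CPM (log2 0.54), a sign that turned among cells of 1000 to 3000 UMIs (-0.53). Interstitial macrophages had 452 CPM in 23 control cells and 449 CPM in 132 CebpaΔSftpc cells. Lymphocytes were the reference at 7.61 and 7.07 CPM. Cxcr6 was found in T cells at 89.4 and 115 CPM.

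Cx3cl1 (fractalkine), whose membrane form captures cells that carry Cx3cr1, was mainly endothelial. Endothelial cells held 94.4% of its assigned UMIs in the control library and 84.6% in the CebpaΔSftpc library. Aerocytes stood at 172 CPM (163–180.10) in the control library and 124 CPM (117–132) in the CebpaΔSftpc library (log2 -0.47, interval -0.58 to -0.36), and the ratio was -1.03 among cells of 1000 to 3000 UMIs. General capillary cells went from 49.2 to 33.1 CPM (log2 -0.57, interval -0.73 to -0.42). Arterial cells (65.1 and 62.5 CPM) and venous cells (39.0 and 36.8 CPM) differed by less. The summed markers of aerocytes and general capillary cells were also lower, by log2 ratios of -0.37 and -0.41, and their part in the Cx3cl1 ratios was not tested.

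The receptor Cx3cr1 was on the monocyte and macrophage side. It stood at 718 and 755 CPM in nonclassical monocytes, which numbered 11 and 271, at 612 and 664 CPM in interstitial macrophages and at 286 and 376 CPM in classical monocytes. The sheddases Adam10 and Adam17, which release Cx3cl1 and Cxcl16, differed less than 2-fold in every type in which they were measured, for example 89.3 and 101 CPM for Adam10 in general capillary cells.

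Cxcr4, the receptor of Cxcl12, changed its main source between libraries. Of assigned Cxcr4 UMIs in the control library, general capillary cells held 49.5% and pericytes 24.3%, and in the CebpaΔSftpc library nonclassical monocytes held 17.7%, B cells 14.9% and neutrophils 13.3%. Within general capillary cells the level was 30.8 and 29.8 CPM (log2 -0.05, and from -0.33 to 0.60 over other settings), and 2.73% of them had a UMI after thinning in both libraries. B cells stood at 233 and 249 CPM (log2 0.10).

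Pericytes, the contractile cells wrapped around capillaries, had the highest Cxcr4 level of the nonimmune types. They stood at 312 CPM (279–347) in the control library and 182 CPM (137–236) in the CebpaΔSftpc library, a log2 ratio of -0.78 (-1.21 to -0.37), or -0.23 among cells of 1000 to 3000 UMIs. After thinning, 23.9% of control and 24.6% of CebpaΔSftpc pericytes had a UMI. Neutrophil markers went from 7.60 to 5347 CPM in cells assigned to pericytes. Of their 1649 UMIs in CebpaΔSftpc pericytes, 1553 lay in a single cell, which held 6 Cxcr4 UMIs. Neutrophils of that library stood at 338 CPM for Cxcr4. The part of that cell in the ratio was not tested. Arterial cells went from 69.1 CPM (52 UMIs in 33 cells) to 5.68 CPM (2 UMIs), a log2 ratio of -3.02 with the 2 UMIs counted as 3. Among cells of 1000 to 3000 UMIs the ratio was 0.99. It too rested on at most 2 CebpaΔSftpc UMIs counted as 3, so its sign was not measured. Of 4 genes measured in arterial cells Cxcr4 was the only one at least 2-fold lower, where 2.59% of all measured genes were.

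In immune cells of the CebpaΔSftpc library Cxcr4 was highest in nonclassical monocytes (393 CPM) and neutrophils (338 CPM), whose intervals overlapped. The nonclassical monocytes also held neutrophil markers at 9615 CPM, and the part of this in their Cxcr4 level was not tested. Neutrophils with Ccl3 and Ccl4 stood at 297 CPM and the others at 346 CPM. T cells went from 103 to 172 CPM, with 27 and 315 cells. Multiciliated cells, the reference, stood at 4.95 and 16.5 CPM.

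Of the 17 further genes of the pathway (7 ligands, 8 receptors and 2 proteases), 16 were in the matrices. In AT2 cells 3 of the ligands were measured and 2 of them, Pf4 and Ppbp, which are platelet genes, were at least 2-fold higher in the CebpaΔSftpc library, where 4.83% of all measured genes were. In adventitial fibroblasts 2 ligands were measured and Cxcl13, a B cell attractant, was the 1 at least 2-fold higher, where 1.51% of all measured genes were, with 42 of its 49 CebpaΔSftpc UMIs in a single cell. In general capillary cells 3 receptors were measured and Cxcr2 and Cx3cr1 were at least 2-fold higher, where 3.99% of all measured genes were. As given above, Cxcr2 was high in neutrophils and Cx3cr1 in nonclassical monocytes. Neutrophil markers in general capillary cells went from 11.2 to 354 CPM, and the part of RNA from other cells was not tested. No protease was at least 2-fold different in any type. Cxcl13 was highest in interstitial macrophages at 423 and 519 CPM, and Cxcl17, a chemokine of mucosal surfaces, in multiciliated cells at 302 and 270.4 CPM among types of at least 30 cells.

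The genes with the profile most like each chemokine were found by Pearson correlation of log2(CPM + 10) over 41 type and library points, among 15102 genes with at least 100 UMIs. The points share 2 libraries and their free RNA, so the values are descriptions. For Cxcl15 these were the surfactant genes Sftpa1, Sftpd and Sftpb (0.99, 0.98 and 0.98). For Cxcl1 they were Lgi2, Islr and Prrx1 (0.86, 0.85 and 0.85), of which Prrx1 is a mesenchymal transcription factor. For Cxcl2 they were Nlrp3, an inflammasome sensor, Ccl6 and Lilr4b (0.94, 0.93 and 0.93), and the correlation of Cxcl1 with Cxcl2 was -0.16.

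For Cxcl14 the nearest genes were Cnr1, Nt5dc2 and Hsd11b1 (0.91, 0.90 and 0.90), for Cxcl12 Jam2, Uaca and Armcx4 (0.86, 0.85 and 0.81), and for Cx3cl1 the endothelial genes Smad6, Ly6c1 and Acvrl1 (0.87, 0.85 and 0.83). Cxcr4 was nearest to Rassf5, Gpsm3 and Pik3cd (0.86, 0.84 and 0.83), and Cxcl16 to Icam1, an adhesion molecule, Zmynd15 and Tnip2 (0.73, 0.72 and 0.68). Cxcl9 (AI839979 at 0.79, then Gapt at 0.77 and Gm46224 at 0.76) and Cxcl10 (Pabpc1l at 0.63, then Tgfbi at 0.59 and Vcan at 0.58) rest on few cells.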

How the data were processed

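The libraries were 10x Genomics 3′ single-cell RNA-Seq of mouse lung, 1 per genotype. The deposited values are raw UMI counts per gene and cell, which the authors made with Cell Ranger (6.1.1 in the submitters' processing notes, 5.0.0 in the file header) on mm10, without normalization. The labels speak of a sorting method and the study's text of whole-lung suspensions, and these accounts were not reconciled.

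Kept cells had 200 or more genes and no more than 20% mitochondrial counts. A cell was assigned to a type when it had at least 3 distinct markers of it (2 for lists of up to 5 markers), a scaled score of at least 0.05 and a score 1.5 times that of the runner-up. A cell with no clear leader was not assigned, and no other doublet step was used in the values reported. Leaving out the 8% of cells with the highest Scrublet score (scanpy 1.11.5) was an alternative. The ratio step was also run on simulated Poisson counts. These lack the crowding of a gene's counts in a few cells, so they do not test the intervals for that case. Levels are summed UMIs per 1000000. Intervals are exact Poisson for levels, Clopper-Pearson for shares and exact conditional binomial for ratios. Under 3 UMIs in a library, a ratio used 3. Shares of cells were also taken after thinning to 1000 UMIs with seed 11. Types needed 30 cells in both libraries for a ratio. Genes needed 50 UMIs in both libraries together to enter the counts of 2-fold differences, while ratios of single genes were also given below that. The threshold was 2-fold, since 1 library per genotype allows no test. Tools were scipy 1.17.1, pandas 2.3.3, numpy 2.4.6 and matplotlib 3.10.9 under Python 3.11.15.

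The genes, the lists and the rule for named genes (the 10 genes, the listed pathway genes, the 3 genes most like each by correlation, the response lists, and Cebpa and markers of other types) were chosen with earlier results of these data known, and gate thresholds were set after the data were seen. Il6 and Ccl2 were named after their values were seen. Alternatives covered the cell filter, depth, gate, doublets, free RNA, the total, cell weighting, the floor, thinning and the top cell.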

Additional observations from a re-analysis of the deposited data

Results flagged for a closer look

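Cells that entered no gate were used in no comparison, and 3 of the genes stood higher in these cells in the CebpaΔSftpc library (4334 cells) than in the Cebpa fl/fl library (2045 cells). Cxcl2 was at 206 CPM against 1.62 CPM, with 2535 UMIs and a UMI in 11.9% of the unassigned CebpaΔSftpc cells. Cxcl10 was at 33.9 CPM against 5.24 CPM, and 103 of its 417 UMIs lay in a single cell. Cxcr4 was at 74.1 CPM against 35.9 CPM. Which cell types these cells hold was not examined.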

How the results depend on the processing

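No paired analysis was possible because each genotype had 1 library, and for the same reason no replicate could be left out. Of 127 alternative values for the log2 ratios in the leading types, 106 stayed within counting error of the reported value, 16 moved further and 5 turned a ratio whose interval lay apart from 0 to the opposite sign. A further 4, all of Cxcl1 in adventitial fibroblasts, turned the sign of a ratio whose interval spans 0. For Cxcl12 in arterial cells the ratio was -0.68 with 1 more marker required (119 and 30 cells), and by depth, a split chosen after the data were seen, -0.22 at 1000 to 3000 UMIs and 0.52 at 3000 to 10000 UMIs. For Cxcl14 in alveolar fibroblasts it was -0.06 with every cell weighted equally, -0.45, 0.51 and 0.68 in the 3 depth classes, and 0.41 in all cells of at least 3000 UMIs. For Cxcl15 in AT2 cells it was -0.16 at or above 3000 UMIs, -0.29 without likely doublets, -0.36 with surfactant and other abundant genes out of the total, -0.59 with cells weighted equally, -0.56 at 1000 to 3000 UMIs and -0.13 at or above 10000 UMIs.

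Cxcl1 in adventitial fibroblasts gave -0.31, 0.95 and -0.31 by depth, -0.18 with cells weighted equally and -0.09 without the top cells, and Cxcl10 in ductal myofibroblasts -2.14 with 1 more marker required. At 1000 to 3000 UMIs, Cxcl16 in AT1 cells gave 0.03, Cx3cl1 in aerocytes -1.03 and Cxcr4 in pericytes -0.23. Among the other ratios, some whose interval lay apart from 0 changed sign. At 1000 to 3000 UMIs these were Cxcl12 in general capillary cells (-0.05), Cxcl16 in AT2 cells (-0.53) and Cxcr4 in arterial cells (0.99). The Cxcr4 value rested on under 3 CebpaΔSftpc UMIs counted as 3, so its sign was not measured. At 3000 to 10000 UMIs they were Cxcl12 in pericytes (-1.17) and Cxcl16 in AT2 cells (-0.15). Ratios whose interval spans 0 turned for Cxcl14 in pericytes (0.25 at 3000 to 10000 UMIs), Cxcl16 in aerocytes (0.10 at or above 10000 UMIs), Cxcl1 in AT2 cells (-0.12 without the top cells) and Cxcr4 in general capillary cells (0.09 with free RNA subtracted, 0.60 at 1000 to 3000 and 0.50 at or above 10000 UMIs). The cause was not tested. With a minimum of 20 UMIs, 8.24% of all gene-type pairs differed at least 2-fold. Without its top cell, Cxcl2 in pericytes had no UMI left. The immune share of Cxcl9 (35.4% to 54.9%) and of Cxcl10 (39.0% to 58.7%) in the CebpaΔSftpc library moved with single cells and gates, while that of Cxcl2 lay between 94.0% and 99.9%.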
